A study of Mus musculus with 54 samples.

Results

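The change in the mammary gland transcriptome between pregnancy day 14.5 and pregnancy day 17.5 was taken from 6 of the 54 arrays of a mouse mammary development series, 3 mice at each day. Members were the arrays whose titles name those days, and all 12422 non-control probe sets of the 12488 on the array were considered. After a filter on dim probe sets and 1 probe set per gene, 7311 features were tested, of which 6441 carried exactly 1 gene symbol. The array is a 1-channel Affymetrix array, and its values are MAS5 signals, a linear measure of probe set brightness that the authors scaled to a common level on every array.

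Each array held RNA of 1 inguinal (4th) gland of 1 mouse, taken after the lymph node was cut away. The day 14.5 and day 17.5 groups were pregnant mice that had been mated at 12 weeks of age and received no treatment. Pregnancy days were counted from the finding of a mating plug. The mice of pregnancy day 12.5 and lactation day 1, used below for the steps on either side, were mated in the same way. The strain was not given in the sources used here. Mice are named by the letters A, B and C of their titles, which name a mouse within a day. The titles state no link of mice across days. The whole gland was extracted, so that fewer cells of a type and less RNA per cell cannot be told apart.

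Late pregnancy is the stage of secretory differentiation in the mouse mammary gland. Alveolar epithelium, driven by prolactin through the receptor and the transcription factor STAT5, fills the fat pad, makes caseins and whey proteins and begins to store lipid droplets, while progesterone of the pregnancy holds back full secretion until birth. Milk protein genes switch on in a staggered order, caseins early and alpha-lactalbumin (Lalba, the regulatory subunit of lactose synthase) late.

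Promoters of 4 milk protein genes are shown because nearly all measured members of that group read higher at day 17.5 and because STAT5 binds a palindrome, TTCNNNGAA, found near casein start sites. The sequences are from RefSeq on build GRCm38.p6, run 5′ to 3′ on the gene's strand from 250 bases before the start to 50 bases after it, and carry the palindrome in capitals.
Csn2: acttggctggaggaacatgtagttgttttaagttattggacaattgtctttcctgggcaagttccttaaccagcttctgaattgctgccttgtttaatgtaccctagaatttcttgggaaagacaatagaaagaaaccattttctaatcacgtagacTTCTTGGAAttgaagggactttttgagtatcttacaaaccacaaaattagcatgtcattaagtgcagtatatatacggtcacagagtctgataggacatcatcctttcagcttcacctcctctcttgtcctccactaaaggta
Csn1s2a: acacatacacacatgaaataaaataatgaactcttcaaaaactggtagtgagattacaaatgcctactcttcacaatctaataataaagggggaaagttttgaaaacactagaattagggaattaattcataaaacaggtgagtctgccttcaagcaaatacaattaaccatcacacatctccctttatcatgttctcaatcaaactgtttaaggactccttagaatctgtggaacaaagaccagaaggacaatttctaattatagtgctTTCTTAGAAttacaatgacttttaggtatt
Glycam1: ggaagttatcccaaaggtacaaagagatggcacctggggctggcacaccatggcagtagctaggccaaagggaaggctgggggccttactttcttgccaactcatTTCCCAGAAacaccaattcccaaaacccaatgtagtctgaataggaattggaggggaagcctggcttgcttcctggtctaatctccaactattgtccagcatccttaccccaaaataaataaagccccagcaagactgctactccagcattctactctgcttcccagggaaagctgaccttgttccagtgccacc
Lalba: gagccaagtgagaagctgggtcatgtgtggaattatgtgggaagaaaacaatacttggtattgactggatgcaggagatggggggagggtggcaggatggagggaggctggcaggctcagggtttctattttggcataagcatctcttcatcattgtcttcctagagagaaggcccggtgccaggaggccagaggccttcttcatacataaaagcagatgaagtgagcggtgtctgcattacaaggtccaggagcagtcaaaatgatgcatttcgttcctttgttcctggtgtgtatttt
The windows lie at chr5:87699376-87699675 on the minus strand for Csn2 (beta-casein), chr5:87774200-87774499 on the plus strand for Csn1s2a (an alpha-S2 casein), chr15:103565032-103565331 on the minus strand for Glycam1 (a mucin-like milk protein) and chr15:98482634-98482933 on the minus strand for Lalba. The palindrome, which reads the same on both strands and was searched as TTCNNNGAA, began 93 bases before the start of Csn2, 145 bases before that of Glycam1 and at base 21 after that of Csn1s2a. Of the 13 measured milk protein genes 11 had an entry (Csn1s2b and Csn3 did not), and 4 of these held the palindrome (the fourth was Csn1s1, 100 bases before its start), against 8.3% of all 32851 windows of 300 bases. The windows of Lalba, Mfge8, Cel, Ltf, Wap, Muc1 and Wfdc18 held none, which says only that these letters are not in these windows. The 4 genes with the palindrome had log2 differences of 0.36 to 0.50 between the days, and none passed the test below. Mfge8, the 1 milk protein gene that passed, was without it. A link between the palindrome and the differences was not tested.

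The 6 arrays had median signals between 33.4 and 37.95, with 24.0% to 28.5% of signals under the floor of 9.4 that was set before taking log2. The number of arrays limits the precision. The day 14.5 mice were alike, with pairwise correlations across features of 0.9715 to 0.9768, and the day 17.5 mice were less so, at 0.9274 to 0.9524. Mouse B of day 17.5 lay closest to mouse C of day 14.5 (r = 0.9645) rather than to its own group. Beta-actin control probe sets near the 3′ end read 2.11 to 3.30 times those near the 5′ end at day 14.5. This ratio is a measure of RNA integrity, and it was 1.74, 2.39 and 2.61 in day 17.5 mice A, B and C. For Gapdh control probe sets it was 1.79 to 3.41 at day 14.5 and 0.98, 2.42 and 3.11 in the day 17.5 mice. Day 17.5 mouse A was the lowest of the 6 arrays in both. At lactation day 1 the ratios were 1.43 to 1.77 for beta-actin and 0.94 to 1.03 for Gapdh. Genes are not independent replicates, and these correlations are descriptions.

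Few features passed the adjusted threshold in this step. With limma fitted to all 54 arrays and p-values adjusted by the Benjamini-Hochberg method over the 7311 features, 35 features passed an adjusted p of 0.05, which was 0.479% of those tested. Of these, 14 rose (0.191%) and 21 fell (0.287%), and 9 and 13 of them by at least 2-fold. The median log2 difference over all features was 0.0000, and 1021 features (14%) had an unadjusted p under 0.05. Of these, 448 were higher at day 17.5 (6.13% of all features) and 573 lower (7.84%). The list counts at that p below stand beside these shares. In 1702 features, 23.3%, the 3 arrays of one day did not overlap the 3 of the other, 778 of them higher at day 17.5 (10.6%) and 924 lower (12.6%), and all 35 called features were among these.

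The number of calls moved with single mice. Without day 17.5 mouse A 0 features were called by limma, with 722 at an unadjusted p under 0.05, and without day 17.5 mouse B 117 were called, 48 higher and 69 lower. Leaving out a day 14.5 mouse gave 8 calls without A, 2 without B (H3c8 and Mia) and 8 without C. Without day 17.5 mouse C 35 were called, of which 18 were among those of the full set. All 35 features kept their direction in these 6 fits, as they had to, because their arrays did not overlap between days. Without day 17.5 mouse A their median size was 1.15 log2 against 1.27 with all mice. The median standard error over all features was 0.33 against 0.29. That mouse also had the lowest 3′ to 5′ ratios, and a link of the Gapdh ratio to the calls was not tested. Among the 35 called features, mouse B was the day 17.5 mouse nearest to the day 14.5 mean in 20, mouse C in 13 and mouse A in 2. Among all 1702 features without overlap it was mouse B in 843, mouse C in 481 and mouse A in 378. All p-values below are from limma, adjusted by Benjamini-Hochberg over all features, and an error after a log2 difference is its standard error.

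**Figure D1:**
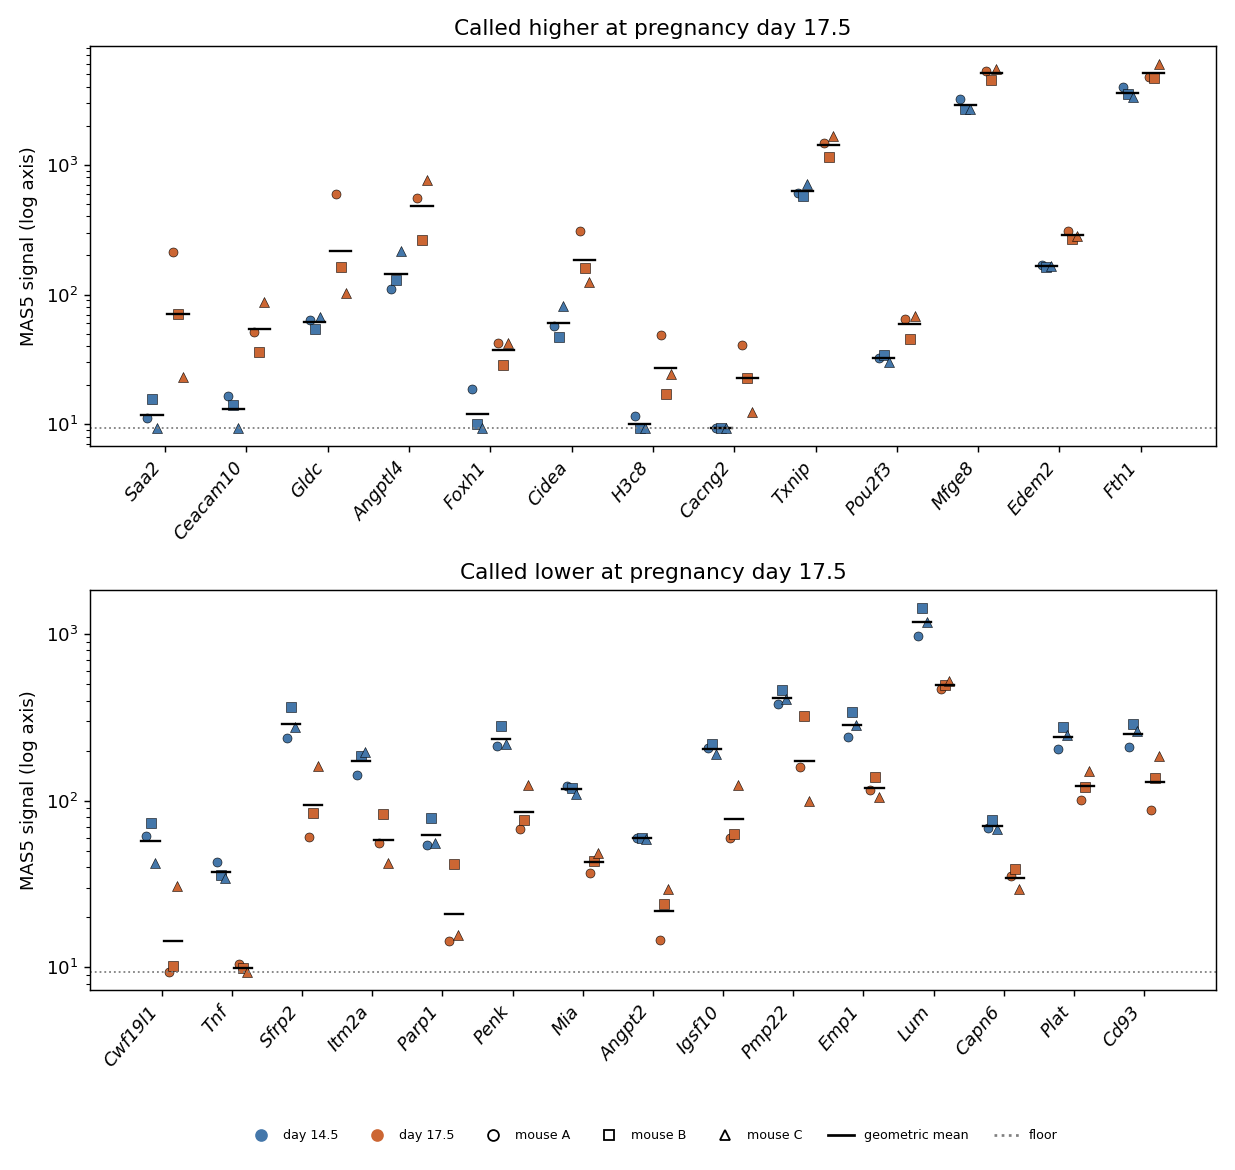
MAS5 signal on a log axis of the 13 called genes that rose (top) and the 15 largest called falls (bottom) with 1 symbol, each point 1 mouse, blue day 14.5 and orange day 17.5. Bars are geometric means and the dotted line is the floor of 9.4, to which lower signals were raised. No orange point overlaps the blue points of its gene.

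Several casein and whey protein genes already had high signals at day 14.5. Of 13 measured milk protein genes 1 rose, against 0.191% of all features called higher. Mfge8 encodes lactadherin, a coat protein of the milk fat globule. Its signals were 3238.0, 2706.6 and 2704.8 in day 14.5 mice A, B and C and 5299.2, 4543.9 and 5481.2 in the day 17.5 mice. All day 17.5 arrays lay above all day 14.5 arrays, and the gene rose 1.77-fold (0.83 ± 0.19 log2, adjusted p = 0.038). With day 17.5 mouse A left out its log2 difference was 0.80 and it was not called. It was also not called without day 17.5 mouse C (0.77) or without each day 14.5 mouse in turn. With quantile normalization (0.65) or with no filter on dim probe sets it was not called either.

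The other milk protein genes did not pass the test. In 12 of the 13 the arrays of the days did not overlap and day 17.5 was higher, against 10.6% of all features, and the median log2 difference of the list was 0.55 against 0.0000 over all features. At an unadjusted p under 0.05, 5 members including Mfge8 were higher and 0 lower, against 6.13% and 7.84% of all features.

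The whey protein gene Lalba had the largest difference of the list. Its signals were 323.8, 194.3 and 355.5 at day 14.5 and 1029.0, 600.5 and 1839.4 at day 17.5. The lowest day 17.5 mouse, B, was above the highest day 14.5 mouse, and the difference was 1.89 ± 0.72 log2 (3.70-fold, adjusted p = 0.23). The standard error is pooled over the 18 time points, and within only the 6 arrays it was 0.42. Csn1s2b, the late alpha-S2 casein gene, read 44.6, 55.7 and 36.7 at day 14.5 and 281.4, 150.0 and 76.5 at day 17.5 (1.72 ± 0.45, adjusted p = 0.058). Here mouse A was highest and mouse C lowest at day 17.5, an order unlike that of Lalba, and without mouse C it was called, at 2.19.

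Cel, the bile salt-stimulated lipase of milk, read 568.3, 389.1 and 494.9 and then 1313.3, 1188.9 and 787.9 (1.16 ± 0.30, adjusted p = 0.054). Ltf, the iron-binding milk protein lactoferrin, read 305.1, 205.0 and 297.4 and then 717.5, 457.5 and 561.8 (1.10 ± 0.33, adjusted p = 0.11). In both genes the day 17.5 arrays were clear of the day 14.5 arrays, with geometric means of 478 and 1072 for Cel and 265 and 569 for Ltf. Cel was called without day 17.5 mouse C, at 1.39.

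The remaining members had log2 differences of 0.36 to 0.69. Csn2 read 3690.0, 3435.1 and 2915.4 at day 14.5 and 3932.2, 4004.0 and 5581.4 at day 17.5 (0.42 ± 0.67, adjusted p = 0.80). Wap, whey acidic protein, read 6072.4, 5122.0 and 4381.1 and then 7174.4, 7830.3 and 10193.0 (0.69 ± 0.78, adjusted p = 0.71). As for Lalba, these errors pool all 18 time points and are not the spread of these 6 mice. Within day 14.5 and day 17.5 the standard deviations of log2 signal were 0.17 and 0.28 for Csn2 and 0.24 and 0.26 for Wap. Csn1s1, the alpha-S1 casein gene, was the member whose days overlapped, at 4961.5 to 6627.9 and 6436.2 to 9798.1. Csn1s2a, Csn3 (kappa-casein), Glycam1, Wfdc18 (a whey acidic protein relative) and Muc1 (a mucin of the fat globule membrane) had log2 differences of 0.46 to 0.55 and adjusted p-values of 0.40 to 0.84. In Csn1s1, Csn1s2a, Csn2, Csn3, Glycam1, Wfdc18 and Wap mouse C of day 17.5 was the highest of its day, and mouse C of day 14.5, another animal, was the lowest of its day. The summed signal of the list was 31283 to 40638 at day 14.5 and 47425 to 64534 at day 17.5.

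**Figure D2:**
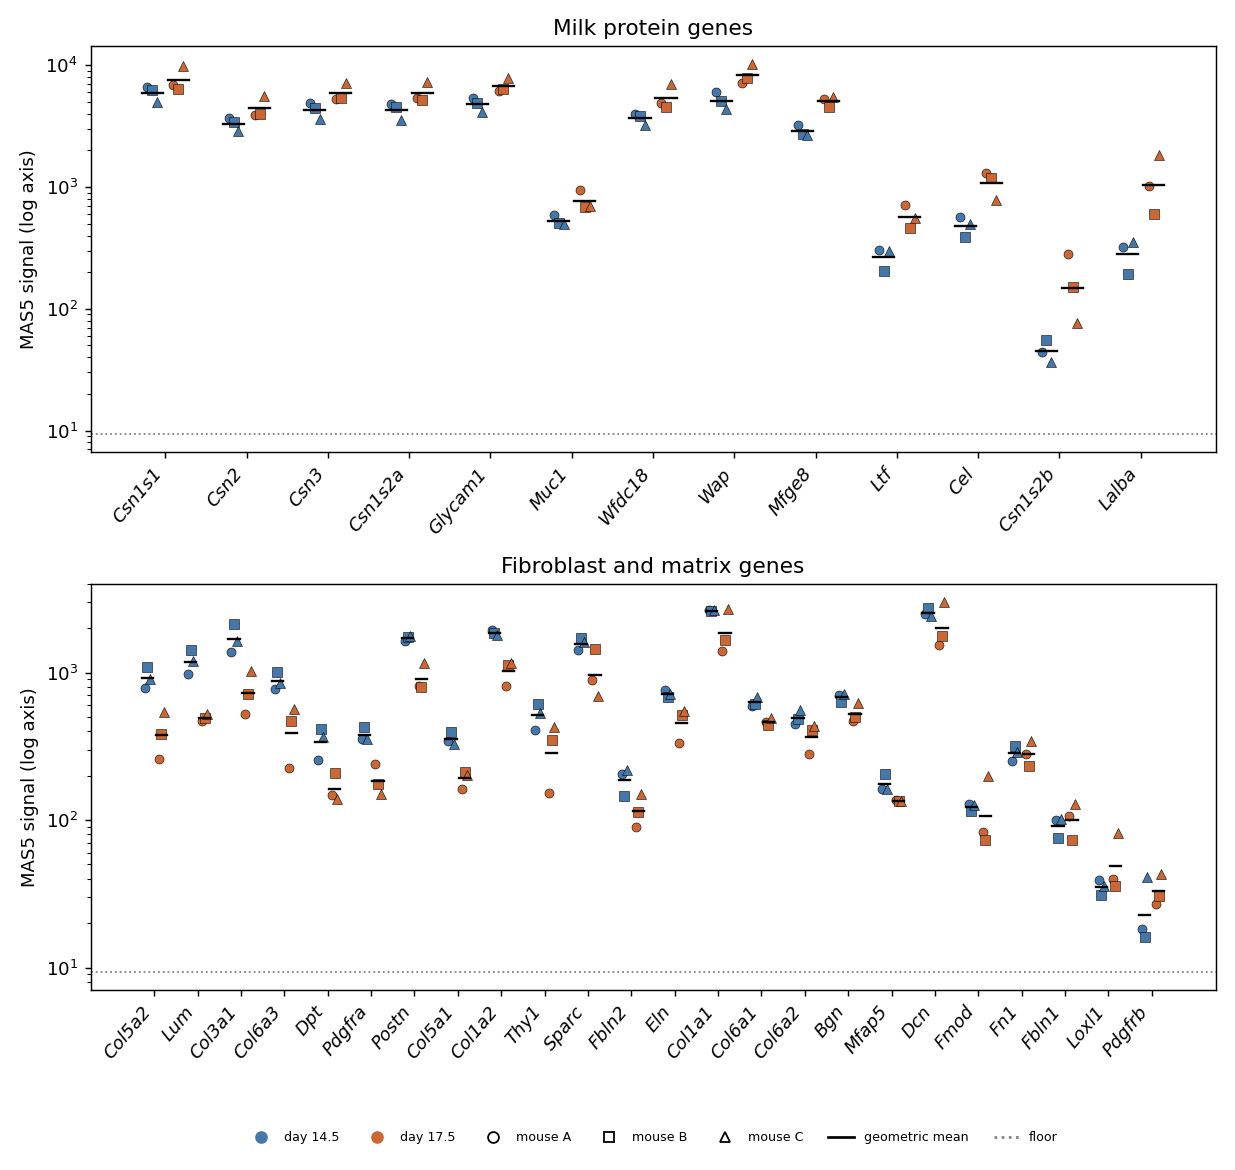
MAS5 signal on a log axis of the 13 milk protein genes (top) and 24 fibroblast and matrix genes (bottom), each ordered by log2 difference, with 1 point per mouse in blue at day 14.5 and orange at day 17.5. Bars are geometric means and the dotted line is the floor. Orange points sit above blue in 12 milk genes and below blue in 14 matrix genes.

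Genes for the milk fat globule and lipid droplets showed 2 called rises among 17 measured members, Cidea and Mfge8, and no called fall. Over all features 0.191% were called higher and 0.287% lower. Cidea encodes a lipid droplet protein needed for milk lipid secretion. It read 57.7, 47.4 and 81.7 at day 14.5 and 309.9, 159.3 and 124.8 at day 17.5, a rise of 3.02-fold (1.60 ± 0.32, adjusted p = 0.0092). Mouse A was the highest and mouse C the lowest of the day 17.5 mice, all above day 14.5, and without mouse A the difference was 1.22 and not called. Cidea is also a brown adipocyte gene, the 1 called of 6 on that list, against 0.191% of all features called higher. The brown adipocyte marker Ucp1 read 4.3 to 12.6 at day 14.5 and 5.5 to 13.5 at day 17.5, near the floor at both. Log2 differences of the others were -0.41 for Cox7a1, -0.06 for Cox8b, 0.12 for Dio2 and 1.23 for Fabp3. Which cells gave the rise of Cidea was not tested.

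Plin2, the adipophilin coat protein of lipid droplets, read 2065.0, 2185.9 and 2934.1 and then 4950.8, 4111.8 and 4203.0 (0.90 ± 0.25, adjusted p = 0.084). Fabp3, a fatty acid carrier of the epithelium, read 1321.3, 807.9 and 879.4 and then 3277.5, 2622.8 and 1421.6 (1.23 ± 0.41, adjusted p = 0.17). Neither passed, although the days did not overlap. Btn1a1, the butyrophilin of the globule membrane, overlapped between days at 722.2 to 1126.0 and 1023.9 to 2075.1, and Xdh, its xanthine oxidoreductase partner, at 107.0 to 219.4 and 96.7 to 339.2. The list's median difference was 0.26, and 5 members did not overlap with day 17.5 higher, against 10.6% of all features.

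Of 16 fatty acid synthesis genes limma called 0, with 2 higher and 2 lower at an unadjusted p under 0.05, and the median difference was -0.07. Acly, which makes cytosolic acetyl-CoA from citrate, read 2230.5, 3090.6 and 2648.3 at day 14.5 and 1348.8, 1419.0 and 1260.0 at day 17.5 (-0.97 ± 0.48, adjusted p = 0.35). Fasn, fatty acid synthase, read 2881.0, 2717.3 and 2785.9 and then 2942.5, 3485.9 and 3409.1 (0.23 ± 0.17, adjusted p = 0.56). The days did not overlap in either gene, and they lay on opposite sides. In the cholesterol synthesis list 0 of 15 genes were called, with 0 higher and 1 lower at an unadjusted p under 0.05 and a median of -0.10.

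The largest called rise was that of Saa2, a serum amyloid A gene of the acute phase response. It read 11.2, 15.7 and 7.4 at day 14.5 and 212.5, 71.4 and 23.2 at day 17.5 (2.58 ± 0.59, 5.97-fold, adjusted p = 0.034). Mouse A was far above the others, the day 14.5 signals stood close to the floor, and without mouse A the difference was 1.78 and not called. With the floor raised to the 40th percentile it was 1.63 and not called. The probe set belongs to a gene family with near-identical copies, so Saa2 and Saa1 may not be separated, and the other Saa2 probe set gave 1.31 ± 0.42 (adjusted p = 0.16). Of 18 acute phase and innate defence genes this was the 1 called, against 0.191% of all features called higher, the median difference was 0.33, and 5 did not overlap with day 17.5 higher, against 10.6% of all features. Lrg1, a leucine-rich glycoprotein, and Cp, the copper carrier ceruloplasmin, had differences of 1.08 ± 0.47 (adjusted p = 0.29) and 0.70 ± 0.24 (adjusted p = 0.19). Orm1, an acid glycoprotein, overlapped at 367.6, 472.6 and 492.0 and then 177.5, 491.7 and 129.9, where mouse B stood apart from its group, and without that mouse it was called lower, at -1.54.

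Gldc, the glycine decarboxylase of the glycine cleavage system, read 63.2, 54.7 and 67.1 and then 600.5, 164.1 and 103.2 (1.82 ± 0.44, adjusted p = 0.042). The day 17.5 mice spanned a wide range, with mouse A at the top, and without A the difference was 1.08 and not called. It was also not called with no floor, with quantile normalization or with arrays centred on their medians. Angptl4, a secreted inhibitor of lipoprotein lipase, read 110.0, 128.6 and 215.7 and then 555.7, 265.6 and 759.1 (1.73 ± 0.35, 3.32-fold, adjusted p = 0.011). Its other probe sets gave 1.25 ± 0.50 (adjusted p = 0.27) and 0.70 ± 0.62 (adjusted p = 0.63), and without day 17.5 mouse A the difference was 1.63 and not called.

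Txnip, the thioredoxin-interacting protein that limits glucose uptake, read 609.0, 574.1 and 707.2 and then 1469.7, 1154.6 and 1675.5 (1.17 ± 0.24, 2.26-fold, adjusted p = 0.0092). A second and dimmer Txnip probe set read 43.7 to 51.7 and 43.4 to 59.8 (0.11 ± 0.21, adjusted p = 0.85), so the probe sets disagreed. Fth1, the ferritin heavy chain, read 4000.2, 3543.0 and 3316.7 and then 4744.2, 4663.0 and 5972.9 (0.50 ± 0.12, adjusted p = 0.038), while its other probe set gave 0.02 ± 0.22 (adjusted p = 0.97). Edem2, a mannosidase-like protein of ER-associated degradation, read 169.4, 163.7 and 167.3 and then 309.8, 267.3 and 283.2 (0.78 ± 0.19, adjusted p = 0.049). The mice of Edem2 were close together within each day. Without day 17.5 mouse A the differences were 1.15 for Txnip, 0.55 for Fth1 and 0.72 for Edem2, and none was called.

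Dimmer genes also rose. Ceacam10, of the carcinoembryonic antigen family, read 16.6, 14.1 and 8.2 and then 51.6, 35.9 and 87.7 (2.07 ± 0.49, adjusted p = 0.038), with 0.86 ± 0.43 (adjusted p = 0.37) at its other probe set. Foxh1, a DNA-binding partner of SMAD proteins, read 18.6, 10.0 and 5.9 and then 42.6, 28.4 and 42.4 (1.63 ± 0.39, adjusted p = 0.038). H3c8, a replication-dependent histone H3 gene with near-identical copies, read 11.6, 4.6 and 4.0 and then 49.1, 17.2 and 24.2 (1.44 ± 0.24, adjusted p = 0.0032). Day 14.5 signals under the floor were found in 1 mouse for Ceacam10, 1 for Foxh1 and 2 for H3c8, so their sizes depend on the floor. With the floor raised to the 40th percentile the differences were 1.26, 0.70 and 0.40, none called, and with no floor Ceacam10 (2.13) and H3c8 (2.19) were not called. Without day 17.5 mouse A the differences were 2.11, 1.53 and 1.02, none called. Cacng2, an auxiliary subunit of AMPA receptors, was under the floor in all 3 day 14.5 mice and read 40.5, 22.6 and 12.5 at day 17.5, at least 2.40-fold above the floor (adjusted p = 0.038), and was not called without mouse A or with the higher floor (0.28). Pou2f3, a POU-domain transcription factor, read 32.7, 34.2 and 30.2 and then 64.9, 45.7 and 68.8 (0.87 ± 0.22, adjusted p = 0.049, and 0.80 without mouse A, not called).

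Among stromal genes, 1 of 24 measured fibroblast and matrix members fell, against 0.287% of all features called lower. Lum encodes lumican, a proteoglycan that organises collagen fibrils. It read 976.6, 1433.4 and 1190.3 at day 14.5 and 468.4, 494.1 and 524.0 at day 17.5, and fell by 1.26 ± 0.26 log2 (2.40-fold lower, adjusted p = 0.014). The day 17.5 mice lay within a narrow range. Leaving out day 17.5 mouse A gave -1.22, which was not called.

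No other member passed. The median log2 difference of the list was -0.68, against 0.0000 over all features. In 14 of 24 members the days did not overlap and day 17.5 was lower, against 12.6% of all features. At an unadjusted p under 0.05, 12 members were lower, against 7.84% of all features. The median was -0.43 without day 17.5 mouse A and -0.41 with Arl2bp and Glo1, described below, as covariates. Col3a1, a fibrillar collagen, read 1381.1, 2122.9 and 1626.0 and then 520.5, 713.7 and 1021.4 (-1.22 ± 0.31, adjusted p = 0.053). Its other probe sets gave -1.25 ± 0.34 (adjusted p = 0.080) and -0.43 ± 0.27 (adjusted p = 0.48).

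Col5a2, of the collagen that nucleates fibrils, read 784.3, 1093.2 and 909.3 and then 260.2, 381.4 and 539.0 (-1.29 ± 0.34, adjusted p = 0.059). Col6a3, of the microfibrillar collagen, read 779.8, 1005.9 and 856.6 and then 227.1, 468.5 and 566.2 (-1.16 ± 0.30, adjusted p = 0.057). In these collagens mouse A was the lowest and mouse C the highest of day 17.5. Without mouse C all 3 were called, at -1.47, -1.55 and -1.43 for Col3a1, Col5a2 and Col6a3, and Col6a3 was called without mouse B (-1.29). Col1a1 overlapped, at 2616.0 to 2641.7 and 1400.3 to 2712.6, and so did Dcn (decorin), at 2407.8 to 2761.8 and 1541.9 to 3003.2, with mouse C high in both. Fn1, fibronectin, differed by -0.03 ± 0.21 (adjusted p = 0.97). Summed over the list, the signal was 18796 to 21497 at day 14.5 and 9946, 12350 and 15483 in day 17.5 mice A, B and C.

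**Figure D3:**
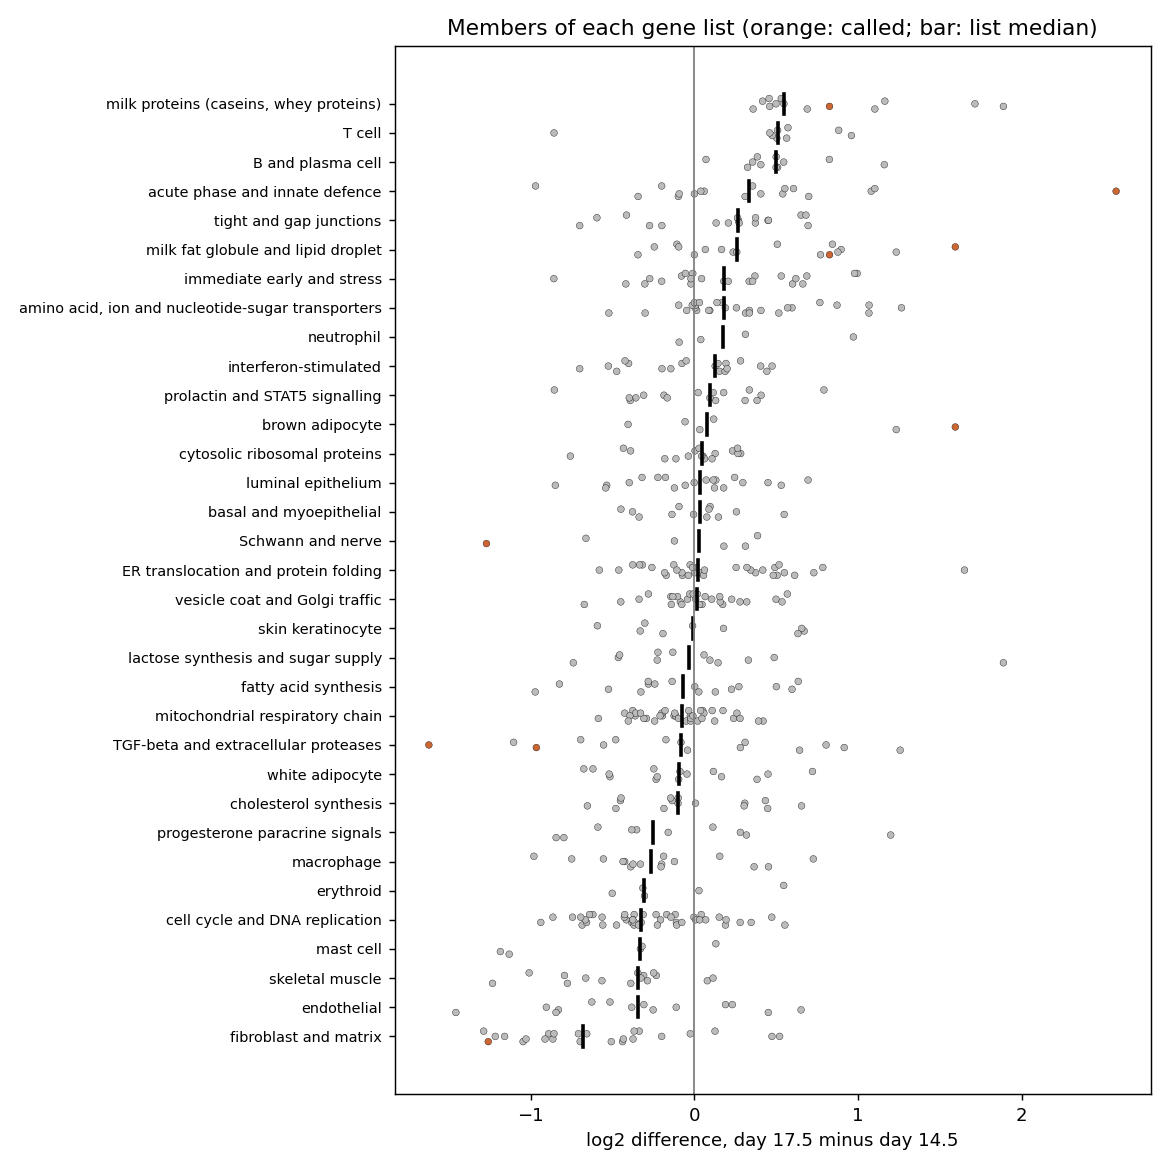
Log2 difference, day 17.5 minus day 14.5, of every measured member (points) of 33 gene lists, sorted by list median (black bars), with called members in orange. Milk proteins have the highest median, 0.55, and fibroblast and matrix genes the lowest, -0.68. Most members are grey, not called.

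Penk, proenkephalin, read 213.7, 280.2 and 220.2 and then 67.3, 76.4 and 124.2 (-1.46 ± 0.28, adjusted p = 0.0092), with -0.45 ± 0.54 (adjusted p = 0.74) at a dimmer probe set. Sfrp2, a secreted WNT antagonist, read 237.4, 367.9 and 277.0 and then 60.4, 84.3 and 162.5 (-1.62 ± 0.39, adjusted p = 0.038). Mia, a small secreted cartilage protein, read 123.2, 119.4 and 109.3 and then 36.7, 43.7 and 48.7 (-1.46 ± 0.25, adjusted p = 0.0032). Day 14.5 mice were close together for Mia, and all 3 genes were called lower without overlap. Igsf10, an extracellular immunoglobulin-domain protein, read 206.2, 219.1 and 191.0 and then 60.0, 63.4 and 124.5 (-1.40 ± 0.30, adjusted p = 0.019). On leaving out day 17.5 mouse A the differences were -1.28 for Penk, -1.31 for Sfrp2, -1.35 for Mia and -1.21 for Igsf10, none called, and Sfrp2 was also not called without day 17.5 mouse B (-1.55).

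Angpt2, a ligand of the endothelial TIE2 receptor, read 59.8, 59.5 and 59.0 and then 14.5, 24.0 and 29.7 (-1.45 ± 0.31, 2.73-fold lower, adjusted p = 0.019). Plat, tissue plasminogen activator, read 204.5, 276.4 and 246.7 and then 101.4, 121.8 and 151.4 (-0.97 ± 0.24, adjusted p = 0.049). Cd93, a C-type lectin of endothelial and myeloid cells, read 211.1, 289.6 and 261.5 and then 87.6, 137.5 and 184.6 (-0.95 ± 0.24, adjusted p = 0.049). Mouse A was the lowest of day 17.5 in each, and without it the differences were -1.16, -0.83 and -0.66, none called. Angpt2 was not called with no floor either. Plat was not called without day 17.5 mouse B either (-0.96). In the list of 14 endothelial markers limma called 0 (0 higher and 4 lower at an unadjusted p under 0.05), the median was -0.35, and 6 did not overlap with day 17.5 lower against 12.6% of all features. The median was -0.20 without day 17.5 mouse A. Cdh5 (VE-cadherin) read 306.1 to 363.1 and 146.4 to 277.4 and was called without day 17.5 mouse C (-1.12), while Pecam1 overlapped at 51.5 to 71.1 and 40.2 to 112.9. The part of the endothelial list in the falls of Angpt2, Plat and Cd93 was not tested.

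Emp1, an epithelial membrane protein, read 240.8, 342.8 and 285.5 and then 116.2, 139.3 and 104.8 (-1.27 ± 0.27, adjusted p = 0.018). Itm2a, an integral membrane protein, read 142.7, 185.4 and 197.6 and then 55.7, 83.7 and 42.3 (-1.58 ± 0.36, adjusted p = 0.034). Capn6, a calpain-family protein, read 69.1, 76.4 and 67.3 and then 35.5, 38.8 and 29.5 (-1.04 ± 0.25, adjusted p = 0.038). The other Capn6 probe set went from 27.6, 30.8 and 33.3 to 5.2, 9.0 and 10.3 (-1.65 ± 0.26, adjusted p = 0.00062), with 2 of the day 17.5 mice under the floor, so that its size depends on the floor. Without day 17.5 mouse A the differences were -1.25, -1.54 and -1.07, none called.

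In a pair of called falls mouse B of day 17.5 stood between the groups. Pmp22, a tetraspan protein of myelin and many other cells, read 380.0, 465.7 and 406.5 and then 159.1, 322.2 and 99.8 (-1.27 ± 0.30, adjusted p = 0.038). Parp1, a DNA damage sensor, read 54.3, 78.9 and 55.8 and then 14.3, 41.6 and 15.6 (-1.56 ± 0.35, adjusted p = 0.028). Without day 17.5 mouse A they were -1.21 and -1.29, not called, and without mouse B they were -1.72 and -2.06. Among 6 Schwann and nerve markers Pmp22 was the 1 called, against 0.287% of all features called lower. S100b read 15.5, 17.4 and 19.0 and then 9.0, 14.6 and 8.1 (-0.66 ± 0.37, adjusted p = 0.41), without overlap, with 2 of the day 17.5 mice under the floor and again with mouse B the highest of that day. Sox10 differed by -0.12 ± 0.22 (adjusted p = 0.82), and Mbp and Ncam1 lay on the other side without overlap, at 0.31 ± 0.19 (adjusted p = 0.46) and 0.39 ± 0.37 (adjusted p = 0.65). Cwf19l1, read by a probe set of reduced specificity, went from 61.3, 73.2 and 42.6 to 7.0, 10.2 and 30.9 (-2.00 ± 0.40, adjusted p = 0.0092, and -1.70 without mouse A, not called). Probe set names also mark reduced specificity for Parp1, Penk, Ceacam10 and Saa2 (_f_at), for Angptl4 and Txnip (_s_at) and for H3c8 (_i_at). The 4 called genes beyond the 15 largest falls were Wdr61, Ybx3, Utp4 and Rlim, at -0.92, -0.88, -0.87 and -0.80.

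Tnf, the cytokine tumour necrosis factor, was the fall that also differed from the step before. It read 42.8, 35.8 and 34.5 at day 14.5 and 10.5, 9.9 and 7.5 at day 17.5, so that the later mice were at or just above the floor, and it fell (-1.92 ± 0.38, adjusted p = 0.0092). The size depends on the floor: it was -0.72 and still called with the floor raised to the 40th percentile, and -2.03 and not called with no floor. From day 12.5, with a geometric mean of 13.3, to day 14.5 the difference was 1.49 ± 0.38 (adjusted p = 0.12). A contrast of the later step minus the earlier step gave -3.41 ± 0.66 (adjusted p = 0.045), the only 1 of 7311 features called, 0.0137%. That call was lost without any 1 of the 6 arrays and with no floor, and the fall itself was not called without day 17.5 mouse A (-1.96) or day 14.5 mouse A (-1.82) or B (-1.95).

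Cell cycle and DNA replication genes numbered 45, with 0 called by limma. At an unadjusted p under 0.05, 0 were higher and 4 lower, against 6.13% and 7.84% of all features. The median difference was -0.33, and 10 members did not overlap with day 17.5 lower against 12.6% of all features. The median was -0.20 without day 17.5 mouse B. Mki67, a proliferation marker, read 77.8, 56.4 and 73.9 and then 38.5, 22.7 and 52.7 (-0.94 ± 0.44, adjusted p = 0.33). Ccnd1, cyclin D1, read 419.9, 293.8 and 402.5 and then 172.2, 163.8 and 296.6 (-0.86 ± 0.26, adjusted p = 0.13), and was called without day 17.5 mouse C (-1.13). Differences were above 0 in 11 of the 45 members, and mitotic genes lay on both sides. Top2a read 36.4, 31.7 and 38.9 and then 33.0, 9.1 and 53.8 (-0.48, adjusted p = 0.66), with day 17.5 mouse B under the floor. Plk1 did not overlap with day 17.5 higher, at 57.9 to 66.3 and 81.0 to 111.4. Ccna2, Aurka and Cdk1 had differences above 0 with mouse B the lowest at day 17.5.

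Hormone pathway genes gave no calls. Of 17 prolactin and STAT5 genes limma called 0 (1 higher and 1 lower at an unadjusted p under 0.05), with a median of 0.10. Stat5a read 661.7, 568.7 and 609.4 and then 679.1, 591.3 and 695.6 (0.10 ± 0.17, adjusted p = 0.83), and Elf5, an alveolar transcription factor, differed by 0.18 ± 0.29 (adjusted p = 0.80). Of 10 progesterone paracrine genes 0 were called (1 higher and 1 lower at an unadjusted p under 0.05). Tnfsf11, the RANK ligand that progesterone induces, read 58.4, 60.4 and 67.4 and then 22.8, 36.5 and 54.4 (-0.80 ± 0.44, adjusted p = 0.40), while its receptor gene Tnfrsf11a read 20.9, 20.4 and 20.7 and then 54.7, 26.0 and 75.3 (1.20 ± 0.42, adjusted p = 0.19). Ligand and receptor thus lay on opposite sides without overlap, and neither passed, though Tnfrsf11a did without day 17.5 mouse B (1.63).

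Secretory machinery gave 0 calls by limma among 34 genes of ER translocation and folding (8 higher and 1 lower at an unadjusted p under 0.05), and 8 did not overlap with day 17.5 higher, against 10.6% of all features. Xbp1, the transcription factor of secretory cell ER expansion, read 859.3, 661.4 and 812.5 and then 1361.7, 1100.6 and 1577.9 (0.79 ± 0.21, adjusted p = 0.070). It was called without day 17.5 mouse B, at 0.92. P4hb, a protein disulfide isomerase, read 157.0, 147.1 and 87.2 and then 686.1, 178.2 and 509.8 (1.65 ± 0.49, adjusted p = 0.11), with mouse B close to day 14.5, and was called without that mouse (2.23). Hsp90b1, the ER chaperone GRP94, lay on the other side at 1124.3 to 1376.7 and 725.6 to 1013.5 (-0.58 ± 0.28, adjusted p = 0.34). Of 28 amino acid, ion and nucleotide-sugar transporters 0 were called (5 higher and 1 lower at an unadjusted p under 0.05) and 8 did not overlap with day 17.5 higher, against the same 10.6%. Abcg2, which exports riboflavin and drugs into milk, read 252.6, 234.7 and 159.5 and then 910.3, 370.4 and 258.4 (1.07 ± 0.33, adjusted p = 0.13), and Folr1, a folate receptor, read 366.4, 294.1 and 299.2 and then 1090.4, 801.4 and 512.9 (1.27 ± 0.46, adjusted p = 0.21). Mouse A was the highest in both, and Abcg2 was called without mouse C (1.46).

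Cell type markers were read for the makeup of the glands. The luminal keratin genes were present at both days, with Krt8 at 944.2 to 1037.4 and 915.2 to 1388.1 and Krt18 at 834.5 to 979.1 and 703.0 to 1055.8, and 0 of 20 luminal markers were called (0 higher and 1 lower at an unadjusted p under 0.05, median 0.04). Adipoq, of white adipocytes, read 2751.4, 3274.8 and 2788.6 and then 2233.2, 2954.5 and 2340.4 (-0.23 ± 0.22, adjusted p = 0.65), so that adipose RNA was present in every gland. Mast cell markers gave 0 calls among 5 (0 higher and 2 lower at an unadjusted p under 0.05). Cma1, a chymase, read 339.1, 311.3 and 335.7 and then 83.9, 182.8 and 219.6 (-1.13 ± 0.36, adjusted p = 0.15), and Cpa3, a mast cell carboxypeptidase, read 101.5, 110.6 and 107.6 and then 37.9, 51.2 and 52.9 (-1.19 ± 0.44, adjusted p = 0.22). Both were clear of overlap.

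B and plasma cell markers had differences above 0 in 11 of 11 members (median 0.50) and T cell markers in 8 of 9 (median 0.51), with 4 and 2 members not overlapping and day 17.5 higher, against 10.6% of all features. Of the 9 T cell markers limma called 0 (0 higher and 1 lower at an unadjusted p under 0.05). Day 17.5 mouse B had the highest Cd79a, a B cell receptor chain, at 143.7 against 27.1 to 65.4 in the other 5 mice, and the highest Ighm at 540.3 against 167.5 to 300.8. Igha, the IgA heavy chain, read 144.8, 139.9 and 165.5 and then 250.6, 251.8 and 594.4 (1.16 ± 0.36, adjusted p = 0.13), and here mouse C was highest. Of 11 B and plasma cell markers 0 were called (1 higher and 0 lower at an unadjusted p under 0.05), with a summed signal of 574.1 to 812.9 at day 14.5 and 824.4 to 1379.6 at day 17.5. Skeletal muscle markers summed to 4284.6 in day 14.5 mouse C and to 1531.0 to 2031.4 in the other 5 mice. Their part in the results was not tested.

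A pair of genes set day 17.5 mouse B apart from mice A and C. Arl2bp, whose protein binds the GTPase ARL2, read 72.9, 87.8 and 69.3 at day 14.5 and 521.2, 77.0 and 594.8 at day 17.5 (1.92 ± 0.60, adjusted p = 0.14). Glo1, glyoxalase I, read 435.8, 468.8 and 491.0 and then 206.4, 408.1 and 149.6 (-1.00 ± 0.30, adjusted p = 0.12), with -0.91 ± 0.33 (adjusted p = 0.22) at its other probe set. For both, mouse B read like or close to the day 14.5 mice, and without it both were called, at 2.87 for Arl2bp and -1.40 for Glo1. With the signals of both genes as covariates limma called 0 features, with 490 at an unadjusted p under 0.05, and all 35 kept their direction. At day 12.5 Arl2bp read 96.4, 90.1 and 89.5 and Glo1 489.8, 478.4 and 527.8 in mice A, B and C. At lactation day 1 Arl2bp read 92.0, 480.4 and 82.2 and Glo1 284.2, 145.1 and 303.6. Mice thus also differed within lactation day 1 in both genes, and the log2 differences above are not a uniform change between days. What makes these mice differ was not tested.

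The neighbouring steps share arrays with this one and are given only side by side. From day 12.5 to day 14.5, 12 features were called (0.164%), 9 higher and 3 lower, and from day 17.5 to lactation day 1, 1783 were called (24.4%), 747 higher and 1036 lower. Without day 14.5 mouse A the count of the earlier step was 4 and without mouse C it was 6. Levels of genes named above took different courses. Lalba had geometric means of 13.5, 282, 1044 and 8494 at day 12.5, day 14.5, day 17.5 and lactation day 1, and Cidea had 65.7, 60.7, 183 and 4858. Angptl4, at 263, 145, 482 and 169, and Txnip, at 840, 628, 1417 and 550, were highest at day 17.5 among these 4 stages by their brightest probe sets. The second Txnip probe set read 53.4, 47.7, 51.4 and 82.0, highest at lactation day 1. Penk by its brighter probe set, at 380, 236, 86.1 and 54.8, and Lum, at 1448, 1186, 495 and 319, were lower at each successive stage. The dimmer Penk probe set read 66.8, 53.8, 39.3 and 92.1, highest at lactation day 1.

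**Figure D4:**
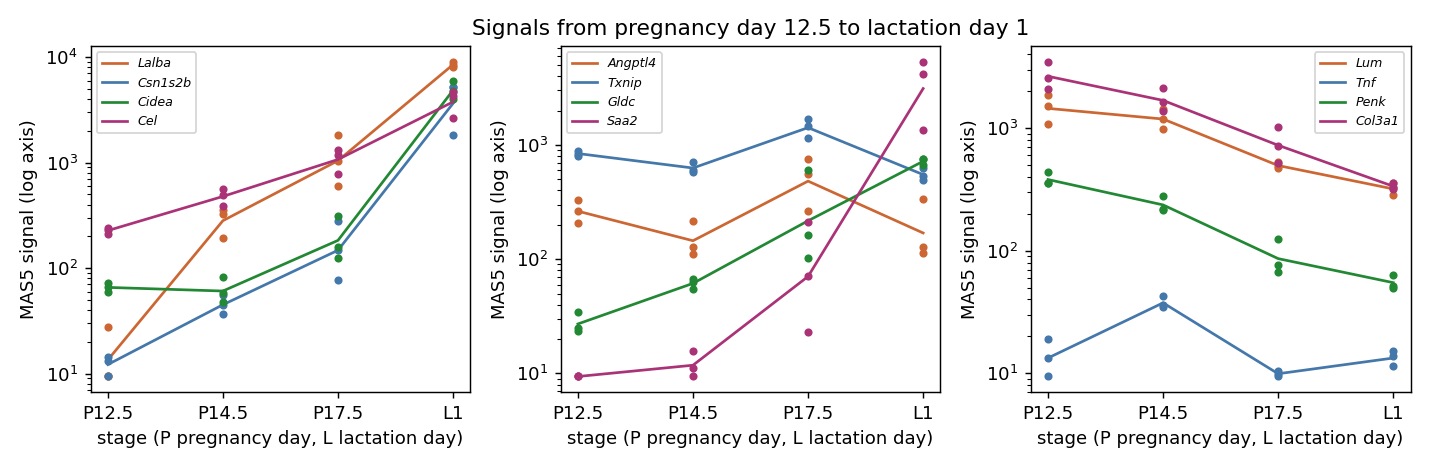
MAS5 signal on a log axis at pregnancy days 12.5, 14.5 and 17.5 and lactation day 1 for 12 genes in 3 panels, each point 1 of 3 mice and each line through the geometric means, with signals under 9.4 raised to it. Milk and lipid genes climb from day 14.5 on (left). The brightest Angptl4 and Txnip probe sets peak at day 17.5 while Gldc and Saa2 climb (middle). The brightest Lum, Penk and Col3a1 probe sets decline while Tnf is high at day 14.5 (right).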

How the data were processed

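Deposited values were MAS5 signal intensity values per probe set on a linear scale, computed and scaled by the authors per the submitters' processing notes. Its version: not given in the sources used here. Control probe sets (66) were left out. A floor of 9.4, the 25th percentile of all signals, replaced lower values. Probe sets above 22.8, the 40th percentile, on each array of 1 or more of the 18 time points were kept, 8640 in number. The brightest probe set stood for a gene, giving 7311 features. Of 12422 non-control probe sets 10833 had exactly 1 symbol, 396 several and 1193 none. Symbols are of the platform annotation.

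limma 3.58.1 (R 4.3.3) was fitted to all 54 arrays with 1 mean per time point and an intensity trend (36 residual, 6.77 prior degrees of freedom), two-sided and Benjamini-Hochberg adjusted. Standard errors therefore pool the spread of all time points. Tables were made with pandas 2.3.3 and numpy 2.4.6 under Python 3.11.15, and plots with matplotlib 3.10.9. The pipeline was tested on simulated data. Gene levels are geometric means. The 33 lists are described by counts and medians, with no set test.

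Named genes were the 15 largest called rises and the 15 largest called falls with 1 symbol and no overlap between days, up to 6 members of each list with a called member (called first, then by size), and a set of fixed milk, hormone, lipid and keratin genes. The text gives a part of these. Prlr had no probe set with that symbol alone and was not analysed here. Other list members, probe sets that disagreed, and the 4 smaller called falls were named after their values were seen. The comparison, the lists and the named genes were chosen with earlier results of these data known. Alternatives were no floor, a higher floor, quantile and median normalization, no filter, no collapsing, the 6 arrays alone, no trend, array weights, a replicate block, the beta-actin ratio or Arl2bp and Glo1 as covariates, and leaving out each of the 6 arrays.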

Additional observations from a re-analysis of the deposited data

How the results depend on the processing

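The 35 calls became 66 with the floor raised to the 40th percentile, 372 with array quality weights (156 higher, 216 lower), 0 with only the 6 arrays compared (1239 at an unadjusted p under 0.05 by limma, with fewer degrees of freedom), and 0 with Arl2bp and Glo1 as covariates (490 at an unadjusted p under 0.05). Leaving out 1 array gave 0 to 117. The other settings gave 24 to 36. Of the 28 named calls, 10 (Angptl4, Cidea, Txnip, Cwf19l1, Parp1, Penk, Mia, Igsf10, Emp1 and Lum) were kept under all 10 settings that used every array and added no gene as a covariate, and 1 to 11 of the 28 were lost under each of these other than array weights. Of these 10, Angptl4, Txnip, Cwf19l1, Parp1 and Penk were read by probe sets marked as of reduced specificity. All 35 kept their direction under every setting run, which leaving out 1 array or using only the 6 arrays could not have changed. The cause of the other moves was not tested.

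The 12 calls of the preceding step became 7 with no floor, 7 with no filter, 23 with the higher floor and 807 with array weights, and 4 to 14 without 1 array. The 1783 calls of the following step were 1343 to 2011 under the other settings and 1263 to 1791 without 1 array. The 1 feature whose steps differed became 0 with no floor (217 at an unadjusted p under 0.05), 0 with quantile normalization (175), 0 with the beta-actin ratio (248), 0 with Arl2bp and Glo1 (141), 23 with array weights, and 0 in each fit without 1 array (145 to 340). The preceding and following steps' alternatives, and leaving out arrays for the difference between steps, were chosen after seeing the data.

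The letter as a replicate block gave 36 calls, 34 of them among the 35, and 14, 1854 and 1 for the other comparisons. Deviations of same-lettered mice correlated at -0.006 to 0.074, and those of mice with different letters at -0.103 to 0.036. These descriptions cannot settle whether a letter links mice of different days.

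With 3 mice a day, dim genes near the floor and genes with near-identical copies are the least certain, and a p that misses the threshold does not show that levels were equal.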
